A study of Mus musculus with 15 samples.

Results

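The FGF ligands Fgf4, Fgf8, Fgf15 and Fgf17, the receptor Fgfr1 and the ERK feedback genes Spry2, Spry4, Dusp6, Etv4 and Etv5 were followed in mouse embryonic stem cells, 10 genes of the 31829 gene names on the array. For each gene the probe carrying its name with the highest mean signal over the 15 arrays was taken, and all 10 genes passed the filter on dim probes that left 25090 gene names for testing. The arrays fall into 4 groups: sh4 cells given 1 µM retinoic acid for 72 h (3 arrays), shCTR cells given the same treatment (4 arrays), untreated sh4 cells (4 arrays) and untreated shCTR cells (4 arrays). The labels give sh4 and shCTR as transfections and call the arrays of a group biological replicates. The line of stem cells, whether each transfection was 1 clone or a pool, and the target of sh4 are not given there. Nor is a time in culture given for the untreated arrays. Changes with retinoic acid below compare treated with untreated arrays, and 72 h of culture cannot be told apart from the acid. All 4 groups carry a transfected hairpin, so no array shows untransfected cells.

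FGF4 is the main FGF that embryonic stem cells make for themselves. It acts through FGFR1 and the Ras and ERK kinase cascade and readies the cells to leave the naive state. ERK activity in turn switches on genes that damp it or carry it further: the Sprouty proteins act on the receptor and Ras, DUSP6 removes phosphate from ERK, and ETV4 and ETV5 are ETS transcription factors that report FGF signalling in many embryonic tissues. Retinoic acid drives stem cells to differentiate through nuclear receptors that bind DNA. PHF19, named in the title of the series, is a Polycomb-like protein of the complex that methylates lysine 27 of histone H3.

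Levels are given as log2 of the scanner's processed signal minus the 75th percentile of the same array, so that 0 is the 75th percentile, and they compare groups for 1 probe and never 1 probe with another. A gene is called where the limma test gave an adjusted p under 0.05 over all genes tested. Phf19 lay between -3.99 and -3.73 on treated sh4 arrays, against -3.08 to -2.82 on treated shCTR arrays. Untreated, it lay between -2.63 and -2.53 in sh4 cells, against -0.99 to -0.71 in shCTR cells. Its level in sh4 cells was thus 54.4% of that in shCTR cells after retinoic acid and 30.2% without treatment. The 75th percentile itself was between 1529 and 1938 intensity units, 74.4% to 80.0% of probes were well above background, no spot was saturated, and the small number of arrays limits the precision.

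The markers of embryonic stem cells were well above background in every group. Their 8 genes summed to 8.22 to 13.3 times the 75th percentile on treated sh4 arrays and 13.6 to 15.9 times on treated shCTR arrays, against 201 to 218 times in untreated sh4 cells and 247 to 271 times in untreated shCTR cells. All 8 fell with retinoic acid in both kinds of cell. Between the hairpins in retinoic acid 2 were called higher, Sox2 and Dppa4, and 4 lower in sh4, against 10.8% and 10.3% of all genes. Untreated, none was called higher and 1 lower, Zfp42, against 14.3% and 14.2% of all genes. Primitive endoderm markers summed to 32.2 to 36.4 in treated sh4 cells and 113 to 121 in treated shCTR cells, and to 6.73 to 7.09 in untreated sh4 cells and 18 to 19.1 in untreated shCTR cells. Trophectoderm markers summed to 266 to 325 and 293 to 317 in treated sh4 and shCTR cells, and to 74.1 to 84.1 and 6.11 to 7.74 in untreated sh4 and shCTR cells, where Elf5 was well above background on no untreated shCTR array. Fibroblast markers summed to 24.1 to 25.6 and 16.1 to 22.4 in treated sh4 and shCTR cells, and to 1.20 to 1.28 and 2.29 to 2.59 in untreated sh4 and shCTR cells, where Postn was well above background on no array. Gene by gene, 4 of these 8 were called higher and 2 lower in untreated sh4 than in untreated shCTR cells. The lower sum thus does not hold for each gene. Of all genes 14.3% were called higher and 14.2% lower there. Neural ectoderm markers summed to between 4.42 and 8.03, and primitive streak markers to between 0.377 and 0.654, with Mixl1 and Cer1 well above background on no array. These sums hide opposite changes. With retinoic acid 3 of 8 neural ectoderm markers rose and 3 fell in shCTR cells, and 2 and 3 in sh4 cells. Of the 6 primitive streak markers tested, 2 rose and 3 fell in shCTR cells, and 1 and 5 in sh4 cells. Of the 8 trophectoderm markers 7 rose and 1 fell in shCTR cells, and 5 and 3 in sh4 cells. Of all genes 28.9% rose and 33.5% fell in shCTR cells, and 27.1% and 31.6% in sh4 cells. In such bulk samples, fewer cells of a type and less RNA per cell cannot be told apart.

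The sh4 array of replicate 4 with retinoic acid stood apart from the other treated sh4 arrays in several of these genes, Fgf4, Etv4 and Etv5 among them, and its stem cell marker sum of 13.3 lay above the 8.86 and 8.22 of the others. Results that rest on it are given with and without it. It was picked out by the values of these same genes, so calls gained without it are descriptions and not separate tests. The scanner software rated this array in range and replicate 1 of treated sh4 for evaluation. Leaving replicate 4 out keeps only replicates 1 and 3 of treated sh4. Arrays of 1 slide also deviated together (correlations of 0.115 to 0.607 over 21 pairs of arrays from different groups), so differences are given within slides and with slide as a block where this matters. The treated sh4 arrays lay on slides 1, 2 and 3 and the other groups on all 4 slides. Slide and replicate number were the same for all arrays except replicates 3 and 4 of treated sh4, on slides 2 and 3. Deviations by slide and by replicate can thus hardly be told apart. Within slides, treated sh4 replicates 3 and 4 were set against treated shCTR replicates 2 and 3.

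The start-site sequences of 4 of the 10 genes were at hand from RefSeq (GRCm38.p6). The 250 bases before each start are shown because Fgf4, Spry2 and Etv5 fell together in retinoic acid while Dusp6 did not. Capitals mark the core promoter motifs CCAAT and GGGCGG on either strand.
Fgf4, chr7:144861136-144861385, plus strand: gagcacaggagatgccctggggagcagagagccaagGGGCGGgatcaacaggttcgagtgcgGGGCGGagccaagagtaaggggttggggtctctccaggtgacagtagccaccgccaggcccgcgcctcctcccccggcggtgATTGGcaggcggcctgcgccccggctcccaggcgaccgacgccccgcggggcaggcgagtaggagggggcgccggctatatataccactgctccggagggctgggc
Spry2, chr14:105896820-105897069, minus strand: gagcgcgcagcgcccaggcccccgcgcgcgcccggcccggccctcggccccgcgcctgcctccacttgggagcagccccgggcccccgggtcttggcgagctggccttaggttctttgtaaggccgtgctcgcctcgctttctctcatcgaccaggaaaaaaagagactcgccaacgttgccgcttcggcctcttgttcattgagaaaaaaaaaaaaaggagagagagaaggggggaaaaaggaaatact
Etv5, chr16:22439571-22439820, minus strand: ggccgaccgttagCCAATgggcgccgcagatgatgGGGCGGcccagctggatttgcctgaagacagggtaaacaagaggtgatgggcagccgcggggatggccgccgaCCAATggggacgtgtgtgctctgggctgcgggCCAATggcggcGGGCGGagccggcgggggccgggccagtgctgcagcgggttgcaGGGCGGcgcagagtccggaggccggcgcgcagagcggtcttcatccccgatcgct
Dusp6, chr10:99262981-99263230, plus strand: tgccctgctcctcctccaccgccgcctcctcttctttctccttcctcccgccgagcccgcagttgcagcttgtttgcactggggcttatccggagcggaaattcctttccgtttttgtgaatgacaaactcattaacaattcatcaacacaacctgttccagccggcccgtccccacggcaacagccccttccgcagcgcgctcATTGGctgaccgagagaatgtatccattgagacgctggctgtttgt
The Fgf4 window holds 1 CCAAT and 2 GGGCGG, the Etv5 window 3 of each, the Dusp6 window 1 CCAAT, and the Spry2 window none of either. CCAAT is found in 33.8% and GGGCGG in 32.7% of the 32851 promoters of the same length, and both were searched after the windows had been seen. The ETS motif CCGGAAG, present in 6.91% of promoters, and the nuclear receptor motif AGGTCA, present in 14% of them, are in none of these 4 windows on either strand. The motifs do not overlap each other. The GC content is 71.2% for Fgf4 and Etv5, 62.4% for Spry2 and 56.4% for Dusp6.

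Most of these genes were lower after retinoic acid in both kinds of cell. In sh4 cells 9 of the 10 were called, 8 lower and Fgfr1 higher, where 58.6% of all genes tested were called, 31.6% lower and 27.1% higher. In shCTR cells all 10 were called, 8 lower and Fgfr1 and Dusp6 higher, where 62.5% of all genes were called, 33.5% lower and 28.9% higher. The median change of the 10 genes was -4.84 in sh4 cells and -3.84 in shCTR cells, against -0.12 over all genes in each. Arrays did not overlap between treated and untreated cells for 8 members in sh4 cells and 10 in shCTR cells, against 57.8% and 59.9% of all genes.

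Fewer of them differed between the hairpins. After retinoic acid, Fgfr1 was higher and Etv4 and Etv5 were lower in sh4 than in shCTR cells, 3 called of 10 where 21.1% of all genes were called (10.8% higher, 10.3% lower). With slide as a block 5 were called, with Fgf15 and Fgf17 also lower, where the same fit called 28% of all genes. Without the treated sh4 array of replicate 4 it was 5, with Fgf4 and Fgf15 also lower, where 17.9% of all genes were called. Untreated, Fgf17, Fgfr1 and Dusp6 were higher in sh4 than in shCTR cells and none was called lower, 3 of 10 where 28.5% of all genes were called (14.3% higher, 14.2% lower). With slide as a block 4 were called untreated, with Fgf8 on its brightest probe lower, where that fit called 36% of all genes. Without the treated sh4 array of replicate 4 it was also 4, with Fgf4 lower, where 28.2% of all genes were called. The arrays of the 2 hairpins did not overlap for 3 members in retinoic acid and 5 untreated, against 32.3% and 28.3% of all genes. In the fit of all 15 arrays without slides, both counts of 3 are near the share of all genes called. The sh4 over shCTR difference was lower in retinoic acid than without it for 3 members, Fgf17, Dusp6 and Etv5, and higher for none, where 20.4% of all genes were called (10.1% lower, 10.3% higher).

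**Figure D1:**
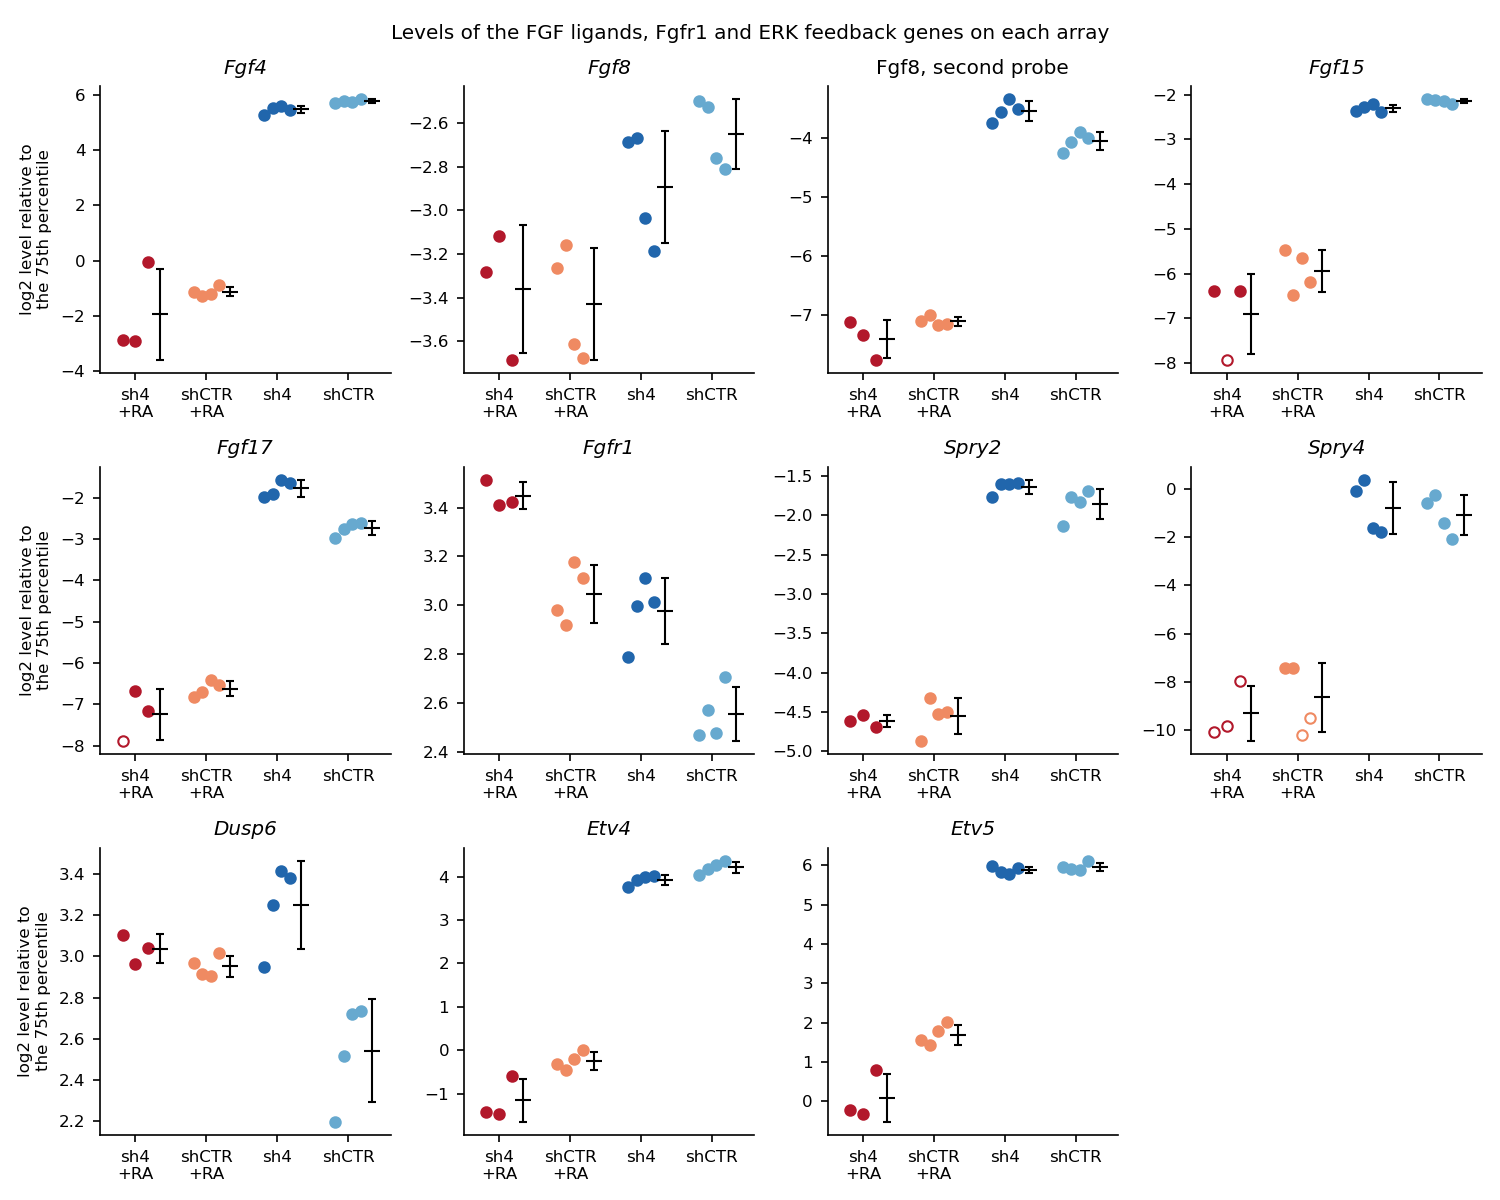
Log2 level relative to the array's 75th percentile for each member on each of the 15 arrays, with the groups from left to right treated sh4, treated shCTR, untreated sh4 and untreated shCTR. Each point is 1 array, open points were not well above background, the bar at the right of each group is the mean ± SD, and the scale differs between panels. Fgf4 on the treated sh4 array of replicate 4 lies at -0.05, above the -2.88 and -2.94 of the other treated sh4 arrays.

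Fgf4 (probe at chr7:152051089-152051148, plus strand, mm9, as are the probe positions below) is the ligand that stem cells supply to themselves. It was at -2.88, -2.94 and -0.05 on the treated sh4 arrays of replicates 1, 3 and 4 and at -1.14, -1.29, -1.20 and -0.89 on the treated shCTR arrays. Untreated, it was at 5.30, 5.55, 5.61 and 5.47 in sh4 cells and at 5.70, 5.81, 5.76 and 5.86 in shCTR cells. Treated and untreated arrays were far apart, and the treated sh4 arrays spanned both sides of the treated shCTR arrays because of replicate 4. Fgf4 fell with retinoic acid, with log2 fold changes of -7.44 ± 0.51 (SE) in sh4 cells (adjusted p = 2.3e-08) and -6.91 ± 0.47 in shCTR cells (adjusted p = 1.7e-08), to 0.576% and 0.830% of the untreated level. Without replicate 4 of treated sh4 the change in sh4 cells was -8.39 ± 0.11, to 0.297% of the untreated level. The sh4 over shCTR difference in retinoic acid was -0.83 ± 0.51 (SE) with adjusted p = 0.32, and within slides it ran from -1.74 to 1.15.

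Without the treated sh4 array of replicate 4, Fgf4 was lower in treated sh4 than in treated shCTR cells (-1.78 ± 0.11, SE, adjusted p = 6.8e-07), at 29.1% of the shCTR level. That value rests on replicates 1 and 3 of treated sh4. Replicate 4 was set aside for its own Fgf4 level among others, which also narrows the spread, so this p-value is not a separate test. Fgf4 in untreated sh4 cells was 81.2% of that in untreated shCTR cells (-0.30 ± 0.47, SE). The untreated arrays of the hairpins did not overlap, and sh4 was lower on all 4 slides, with differences of -0.40 to -0.15. The adjusted p of that difference was 0.75 in the fit of all groups, whose shared spread for Fgf4 includes replicate 4 of treated sh4. It was 0.029 without that array and 0.040 with the untreated arrays alone. The levels thus ran in the order untreated shCTR, untreated sh4, treated shCTR, treated sh4, with no difference past the threshold inside the untreated or the treated pair over all 15 arrays.

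Fgf8 encodes a ligand of early gastrulation and brain patterning, and 2 of its probes, which lie 253 bases from each other on chr19, were well above background on all arrays but did not move alike. Their letters are shown because the result depends on which is read, the first 30 of 60 bases of the brightest probe and all 60 of the second.
Fgf8 brightest probe, chr19:45811355-45811414, minus strand: aaggggaggggctggggagctgccttctag
Fgf8 second probe, chr19:45811668-45811727, minus strand: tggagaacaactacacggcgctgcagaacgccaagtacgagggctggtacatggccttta
Both carry 4 RefSeq transcript accessions in the array's annotation. The remaining Fgf8 probe was well above background on no array.

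On the brightest Fgf8 probe the levels were -3.28, -3.12 and -3.69 in treated sh4 cells and -3.27, -3.16, -3.61 and -3.68 in treated shCTR cells. Untreated, they were -2.68, -2.67, -3.03 and -3.19 in sh4 cells and -2.50, -2.53, -2.76 and -2.81 in shCTR cells. Replicates on slides 1 and 2 were above those on slides 3 and 4 in all 3 groups that lay on every slide. With retinoic acid this probe fell, at -0.47 ± 0.18 (SE) in sh4 cells (adjusted p = 0.036) and -0.78 ± 0.16 in shCTR cells (adjusted p = 0.00088). The call in sh4 cells was lost without the treated sh4 array of replicate 4 (-0.31, adjusted p = 0.19).

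The second Fgf8 probe, read after the disagreement had been seen, was at -7.11, -7.32 and -7.75 in treated sh4 cells and at -7.10, -6.99, -7.15 and -7.14 in treated shCTR cells. Without treatment its levels were -3.75, -3.56, -3.34 and -3.51 in sh4 cells and -4.26, -4.07, -3.90 and -4.00 in shCTR cells. It fell with retinoic acid, at -3.86 ± 0.14 (SE) in sh4 cells (adjusted p = 4.0e-11) and -3.04 ± 0.13 in shCTR cells (adjusted p = 1.3e-10). In untreated cells it was higher in sh4 than in shCTR cells, by 0.52 ± 0.13 (SE) with adjusted p = 0.0083, and higher on each of the 4 slides. The brightest probe gave the opposite sign there, -0.24 ± 0.16 (SE) with adjusted p = 0.34 in the fit without slides and 0.0086 with slide as a block. In retinoic acid the sh4 over shCTR difference was -0.30 (adjusted p = 0.17) on the second probe and 0.07 (adjusted p = 0.88) on the brightest.

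Fgf15 (chr7:152086371-152086430, plus strand) encodes the mouse counterpart of human FGF19, a gut hormone that is also made in the early neural tube. It was at -6.39, -7.93 and -6.39 in treated sh4 cells, where the array at -7.93 was not well above background, and at -5.47, -6.49, -5.64 and -6.19 in treated shCTR cells. In untreated cells the values were -2.36, -2.28, -2.21 and -2.38 in sh4 cells and -2.10, -2.12, -2.15 and -2.21 in shCTR cells. Treated and untreated arrays were clearly apart, while the hairpins overlapped in both conditions. Fgf15 fell with retinoic acid, at -4.59 ± 0.33 (SE) in sh4 cells (adjusted p = 3.2e-08) and -3.80 ± 0.30 in shCTR cells (adjusted p = 8.0e-08). The sh4 over shCTR difference in retinoic acid was -0.96 ± 0.33 (SE) with adjusted p = 0.054, and sh4 was lower on all 3 slides that held both, with differences of -1.44 to -0.75. With slide as a block it passed (-1.0, adjusted p = 0.022), as it did without the treated sh4 array of replicate 4 (-1.21, adjusted p = 0.031), where it was 43.2% of the shCTR level. Without replicate 3 of treated sh4, the array at -7.93, the difference was -0.445 (adjusted p = 0.20). In untreated cells the difference was -0.16 ± 0.30 (adjusted p = 0.81).

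Fgf17 (chr14:71038719-71038778, minus strand) belongs to the same subfamily of ligands as Fgf8. Its levels were -7.88, -6.67 and -7.17 in treated sh4 cells, the array at -7.88 not well above background, and -6.82, -6.70, -6.42 and -6.54 in treated shCTR cells. Untreated, they were -1.99, -1.90, -1.57 and -1.63 in sh4 cells and -2.97, -2.75, -2.63 and -2.60 in shCTR cells. Untreated sh4 arrays all lay above untreated shCTR arrays, while the treated arrays of the hairpins overlapped. Fgf17 was higher in untreated sh4 than in untreated shCTR cells by 0.96 ± 0.21 (SE), 195% of the shCTR level, with adjusted p = 0.0030 and within-slide values of 0.84 to 1.06. In retinoic acid the difference was -0.62 ± 0.22 (SE) with adjusted p = 0.070, and -0.58 with adjusted p = 0.033 with slide as a block. Within slides it ran from -1.06 to 0.03, lower in sh4 on 2 of 3 slides. It was -0.30 (adjusted p = 0.34) without replicate 1 of treated sh4, the array at -7.88, and -0.90 (adjusted p = 0.0067) without replicate 3. The change with retinoic acid was -5.47 ± 0.22 in sh4 cells (adjusted p = 1.2e-10) and -3.89 ± 0.21 in shCTR cells (adjusted p = 1.3e-09).

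Fgfr1 (chr8:26685072-26685131, plus strand), the main FGF receptor of stem cells, was the only member called higher in every one of the 4 comparisons between groups. It was at 3.51, 3.41 and 3.42 in treated sh4 cells and at 2.98, 2.92, 3.18 and 3.11 in treated shCTR cells. Untreated, it was at 2.79, 3.00, 3.11 and 3.01 in sh4 cells and at 2.47, 2.57, 2.48 and 2.71 in shCTR cells. Neither the treated nor the untreated arrays of the hairpins overlapped, and the arrays of treated shCTR cells overlapped those of untreated sh4 cells. Fgfr1 was higher in sh4 than in shCTR cells by 0.40 ± 0.09 (SE) in retinoic acid (adjusted p = 0.0063) and by 0.42 ± 0.08 untreated (adjusted p = 0.0018), 132% and 134% of the shCTR level. It was higher on every slide in both conditions, by 0.25 to 0.53 treated and 0.31 to 0.63 untreated. With retinoic acid it rose by 0.47 ± 0.09 in sh4 cells (adjusted p = 0.00050) and 0.49 ± 0.08 in shCTR cells (adjusted p = 0.00017).

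The order for Fgfr1 was treated sh4, treated shCTR, untreated sh4, untreated shCTR, and treated shCTR and untreated sh4 cells differed by 0.07 (adjusted p = 0.51). Centring each array on its median in place of the 75th percentile ended all 4 of these calls, with values of 0.43, 0.39, 0.33 and 0.29 for sh4 over shCTR treated and untreated and for retinoic acid in sh4 and shCTR cells, and adjusted p of 0.088, 0.074, 0.076 and 0.087. A second Fgfr1 probe gave 0.35 (adjusted p = 0.10) for sh4 over shCTR in retinoic acid and 0.45 (adjusted p = 0.018) untreated. For retinoic acid it gave 0.63 (adjusted p = 0.0016) in sh4 and 0.73 (adjusted p = 0.00023) in shCTR cells. The third Fgfr1 probe, dimmer but well above background on all 15 arrays, gave 0.33 ± 0.39 (SE) and 0.19 ± 0.36 for the hairpins, treated and untreated. With retinoic acid it gave 0.29 ± 0.39 in sh4 and 0.15 ± 0.36 in shCTR cells. Each of its values was smaller than its SE.

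Spry2 and Spry4 encode Sprouty proteins, which ERK induces and which hold back signalling from the receptor to Ras. Spry2 (chr14:106291845-106291904, minus strand) was at -4.62, -4.53 and -4.69 in treated sh4 cells and at -4.87, -4.32, -4.52 and -4.50 in treated shCTR cells. The untreated levels were -1.77, -1.60, -1.60 and -1.58 in sh4 cells and -2.14, -1.77, -1.83 and -1.69 in shCTR cells. It fell with retinoic acid to 12.7% of the untreated level in sh4 cells (-2.98 ± 0.13, SE, adjusted p = 1.7e-10) and to 15.4% in shCTR cells (-2.70 ± 0.12, adjusted p = 1.5e-10). The hairpins overlapped in both conditions. The sh4 over shCTR difference was -0.06 in retinoic acid (95% interval -0.33 to 0.21, adjusted p = 0.84) and 0.22 untreated (-0.03 to 0.47, adjusted p = 0.21).

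Spry4 showed the widest spread between replicates of any untreated member. Its levels were -10.07, -9.82 and -7.98 in treated sh4 cells, where no array was well above background, and -7.43, -7.41, -10.18 and -9.50 in treated shCTR cells, where those of replicates 1 and 2 were. Before treatment it read -0.11, 0.35, -1.61 and -1.81 in sh4 cells and -0.59, -0.28, -1.42 and -2.10 in shCTR cells. In both untreated groups the arrays on slides 1 and 2 were above those on slides 3 and 4. Spry4 was at least 137-fold lower in treated than in untreated sh4 cells (adjusted p = 6.6e-07), a bound that takes the higher, on each array, of the lowest signal well above background and the probe's own. Its fitted change there was -8.49 over all 15 arrays and -9.15 without replicate 4 of treated sh4. In shCTR cells the fall was -7.53 ± 0.75 (SE, adjusted p = 8.4e-07). The sh4 over shCTR difference in untreated cells was 0.30 with a 95% interval of -1.32 to 1.92, so neither its sign nor its size is settled. The shared spread behind that interval includes treated arrays at background. Within slides the untreated difference ran from -0.20 to 0.63, with sh4 higher on 3 of 4 slides.

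Dusp6 (chr10:98729985-98730044, plus strand) encodes the ERK phosphatase of the feedback loop and did not follow the other feedback genes in retinoic acid. It was at 3.11, 2.96 and 3.04 in treated sh4 cells and at 2.97, 2.92, 2.91 and 3.02 in treated shCTR cells. In the absence of retinoic acid it was at 2.95, 3.25, 3.42 and 3.38 in sh4 cells and at 2.20, 2.52, 2.72 and 2.74 in shCTR cells. Untreated shCTR cells were the lowest group, apart from all others. Dusp6 was higher in untreated sh4 than in untreated shCTR cells by 0.71 ± 0.12 (SE), 163% of the shCTR level, with adjusted p = 0.00060 and within-slide values of 0.65 to 0.75. In retinoic acid the difference was 0.09 (95% interval -0.20 to 0.37, adjusted p = 0.78).

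With retinoic acid the change of Dusp6 was -0.21 in sh4 cells (95% interval -0.50 to 0.08, adjusted p = 0.19). In shCTR cells it rose by 0.41 ± 0.12 (SE, adjusted p = 0.010), a rise that was 0.21 with adjusted p = 0.33 when arrays were centred on their median. The difference between these changes, -0.62 ± 0.18 (SE), had adjusted p = 0.027, within-slide values of -0.69 to -0.56, and an adjusted p of 0.053 without the treated sh4 array of replicate 4 and 0.23 with median centring.

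Etv4 and Etv5 encode ETS factors of the same subfamily. Etv4 (chr11:101631057-101631116, minus strand) was at -1.43, -1.46 and -0.59 in treated sh4 cells and at -0.32, -0.46, -0.20 and 0.02 in treated shCTR cells. Untreated, it was at 3.76, 3.93, 3.99 and 4.01 in sh4 cells and at 4.05, 4.18, 4.26 and 4.36 in shCTR cells. In both conditions the arrays of sh4 all lay below those of shCTR. Etv4 in treated sh4 cells was 53.1% of that in treated shCTR cells (-0.91 ± 0.19, SE, adjusted p = 0.0029), with within-slide values of -1.11 to -0.38. Without replicate 4 of treated sh4 the difference was -1.20 (adjusted p = 4.3e-05), and on a second Etv4 probe it was -0.79 (adjusted p = 0.065). Untreated, it was -0.29 ± 0.17 with adjusted p = 0.27, and sh4 was lower on all 4 slides, with differences of -0.35 to -0.25. Etv4 fell with retinoic acid, at -5.08 ± 0.19 in sh4 cells (adjusted p = 4.2e-11) and -4.45 ± 0.17 in shCTR cells (adjusted p = 4.5e-11).

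Etv5 (chr16:22381387-22381446, minus strand) showed the largest hairpin difference of the 10 genes over all 15 arrays, and it showed it in retinoic acid. Its levels were -0.22, -0.31 and 0.80 in treated sh4 cells and 1.55, 1.44, 1.80 and 2.01 in treated shCTR cells. Untreated, they were 5.97, 5.83, 5.78 and 5.93 in sh4 cells and 5.96, 5.90, 5.87 and 6.11 in shCTR cells. The treated hairpins did not overlap, even with replicate 4 of sh4 closest to shCTR, and the untreated ones did. Etv5 in treated sh4 cells was 32.8% of that in treated shCTR cells (-1.61 ± 0.22, SE, adjusted p = 0.00014), with within-slide values of -1.77 to -1.0, and 25.7% without replicate 4 (-1.96, adjusted p = 1.4e-06). The untreated difference was -0.08 with a 95% interval of -0.52 to 0.36 (adjusted p = 0.87). It fell with retinoic acid, at -5.79 ± 0.22 in sh4 cells (adjusted p = 5.9e-11) and -4.26 ± 0.20 in shCTR cells (adjusted p = 3.8e-10).

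**Figure D2:**
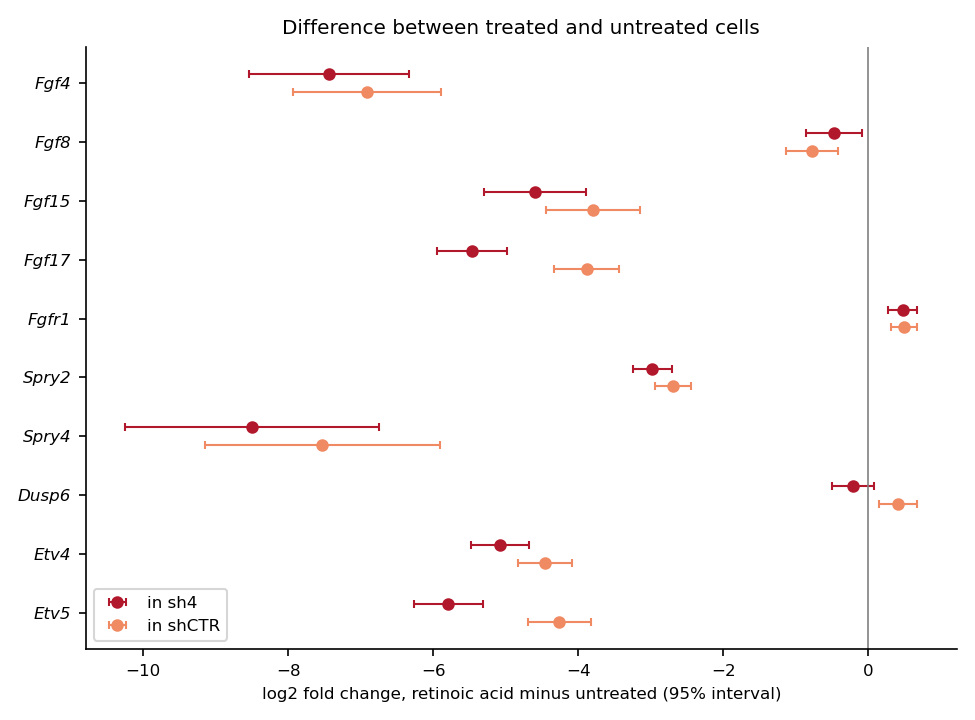
Log2 fold change of retinoic acid over untreated for each member, with its 95% interval, in sh4 cells (upper point of each pair) and shCTR cells (lower point). Fgf8 on its brightest probe lies at -0.47 and -0.78, Fgfr1 at 0.47 and 0.49, and Spry4 at -8.49 and -7.53, where treated sh4 arrays give only a bound.

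**Figure D3:**
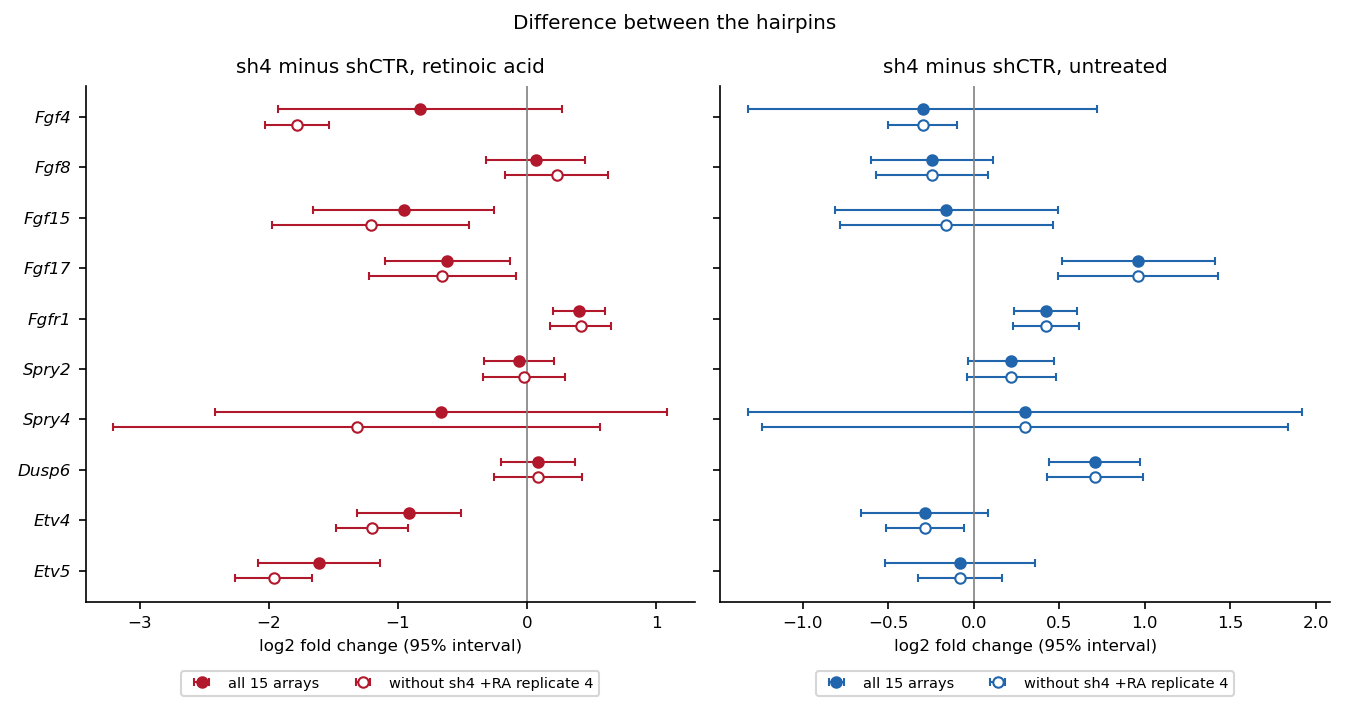
Log2 fold change of sh4 over shCTR for each member with its 95% interval, in retinoic acid (left) and untreated (right), from all 15 arrays (filled) and without the treated sh4 array of replicate 4 (open). In retinoic acid Fgf4 is at -0.83 with that array and at -1.78 without it, Etv5 at -1.61 and -1.96, and Fgfr1 at 0.40 and 0.42.

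The test of the difference between the hairpin effects set the conditions against each other directly. For Fgf17 the sh4 over shCTR difference was -0.62 in retinoic acid and 0.96 without it, and the difference between them was -1.58 ± 0.30 (SE, adjusted p = 0.0022). For Etv5 the values were -1.61 and -0.08, a difference of -1.53 ± 0.30 (adjusted p = 0.0024). Both were below 0 within each of the 3 slides that held all groups, Fgf17 at -2.04 to -0.81 and Etv5 at -1.78 to -0.92. Fgf17 was dim in retinoic acid, at 7.16 to 15.6 intensity units in sh4 cells and 15.1 to 21.0 in shCTR cells. Of the treated sh4 arrays 2 of 3 were well above background for it. The size of its value is thus tied to the untreated difference and limited by background. Etv4 missed the threshold (-0.63, adjusted p = 0.11) and passed it with slide as a block (-0.57, adjusted p = 0.0497) or without replicate 4 of treated sh4 (-0.91, adjusted p = 0.0022). Fgf4 gave -0.53 (adjusted p = 0.73) with that array and -1.48 (adjusted p = 2.5e-05) without it. That array was picked out by its Fgf4, Etv4 and Etv5 levels, so calls gained without it are not separate support. On the second Fgf8 probe the value was -0.81 (adjusted p = 0.0080), against 0.31 (adjusted p = 0.47) on the brightest. Fgfr1 gave -0.02 with a 95% interval of -0.29 to 0.25. Comparisons between treated and untreated cells share their arrays with the comparisons between hairpins, so the values of a gene in them are not independent. The stem cell, primitive endoderm and trophectoderm marker sums given above moved with hairpin and treatment in the same arrays, and their part in these results was not tested.

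The other FGF ligands were represented by 18 genes, of which 15 passed the filter. Counts for this list and those below stand beside the shares of all genes called. For sh4 over shCTR these were 10.8% higher and 10.3% lower in retinoic acid, and 14.3% and 14.2% untreated. With retinoic acid they were 27.1% higher and 31.6% lower in sh4 cells, and 28.9% and 33.5% in shCTR cells. In retinoic acid 2 were higher and 3 lower in sh4 than in shCTR cells. Fgf3 and Fgf10, which act in ear and limb development, were lower there, at -2.56 ± 0.14 and -2.15 ± 0.09 (SE; adjusted p = 5.0e-08 and 4.0e-09), and Fgf9 and Fgf5 were higher by 0.97 ± 0.23 and 0.74 ± 0.09. Untreated, 2 were higher and 3 lower. Fgf5, a ligand of the primed epiblast, was higher in untreated sh4 cells by 2.61 ± 0.08 (adjusted p = 1.8e-10), and Fgf10 was lower, at -1.09 ± 0.08. The medians of the list, 0.10 in retinoic acid and 0.02 untreated, were close to those over all genes, 0.04 and 0.02. With retinoic acid 4 rose and 3 fell in sh4 cells, and 6 rose and 1 fell in shCTR cells, a mixed pattern beside the falls of the 4 member ligands.

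Receptors and co-receptors other than Fgfr1 numbered 10 tested of 11. With retinoic acid 7 rose and 2 fell in sh4 cells, and 9 rose and none fell in shCTR cells, with medians of 1.25 and 1.48. Of all genes 27.1% rose and 31.6% fell in sh4 cells, and 28.9% and 33.5% in shCTR cells. Klb, the co-receptor for FGF15 and FGF21, rose by 3.41 ± 0.14 (SE) in sh4 cells and 5.28 ± 0.13 in shCTR cells, and Flrt3, a membrane protein that binds FGF receptors, rose by 3.88 ± 0.12 and 5.07 ± 0.11. Between the hairpins in retinoic acid 1 was higher and 4 were lower in sh4, with Klb at -2.87 ± 0.14 (adjusted p = 1.8e-08) and Fgfr3 at -1.44 ± 0.43 (adjusted p = 0.029). Untreated, 2 were higher and 2 lower, and Fgfbp1, a secreted carrier of FGFs, was higher by 2.73 ± 0.13 (adjusted p = 3.5e-09). The hairpin medians of the list were -0.02 in retinoic acid and -0.13 untreated.

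All 19 genes of the Ras and ERK cascade were tested. Between the hairpins 5 were higher and 2 lower in sh4 in retinoic acid, against 10.8% and 10.3% of all genes. Untreated, 6 were higher and none lower, against 14.3% and 14.2% of all genes, and the kinase Braf was at 0.59 ± 0.07 (SE, adjusted p = 1.2e-05). The medians of the list were 0.18 in retinoic acid and 0.11 untreated. With retinoic acid 3 rose and 8 fell in sh4 cells, and 5 rose and 8 fell in shCTR cells. The Ras exchange factor Sos2 rose by 1.08 ± 0.08 and 1.25 ± 0.08 in sh4 and shCTR cells, and the adaptor Gab1 fell, at -0.97 ± 0.11 and -0.67 ± 0.10.

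Of the other ERK feedback and response genes, 24 of 24 were tested, and 12 were higher and none lower in untreated sh4 than in untreated shCTR cells. Among all genes 14.3% were higher and 14.2% lower. The median of the list was 0.28, against 0.02 over all genes. Dusp4 and Dusp1, phosphatases of MAP kinases, were at 1.94 ± 0.09 and 1.31 ± 0.13 (SE; adjusted p = 4.2e-09 and 5.3e-06). In retinoic acid 4 were higher and 2 lower in sh4 cells, against 10.8% and 10.3% of all genes, with a median of -0.03 against 0.04 over all genes. Ccnd1 (0.62 ± 0.11) and Spry1 (0.60 ± 0.10) were the highest there and Dusp9 (-1.0 ± 0.11) the lowest. The sh4 over shCTR difference was lower in retinoic acid than without it for 10 of the 24 genes and higher for 1, Ccnd1 (0.45 ± 0.15, adjusted p = 0.043, or 0.059 with slide as a block), with a median of -0.44. Dusp4 gave -2.19 ± 0.13 (adjusted p = 1.7e-07) and Dusp1 -1.22 ± 0.20 (adjusted p = 0.00061) in that test, which called 10.1% of all genes lower and 10.3% higher. Counts with slide as a block were the same for both hairpin comparisons, where that fit called 28% of all genes in retinoic acid and 36% untreated. Without replicate 4 of treated sh4 the test of the difference called 9 of the 24 lower and 0 higher, and 17.8% of all genes in either direction.

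**Figure D4:**
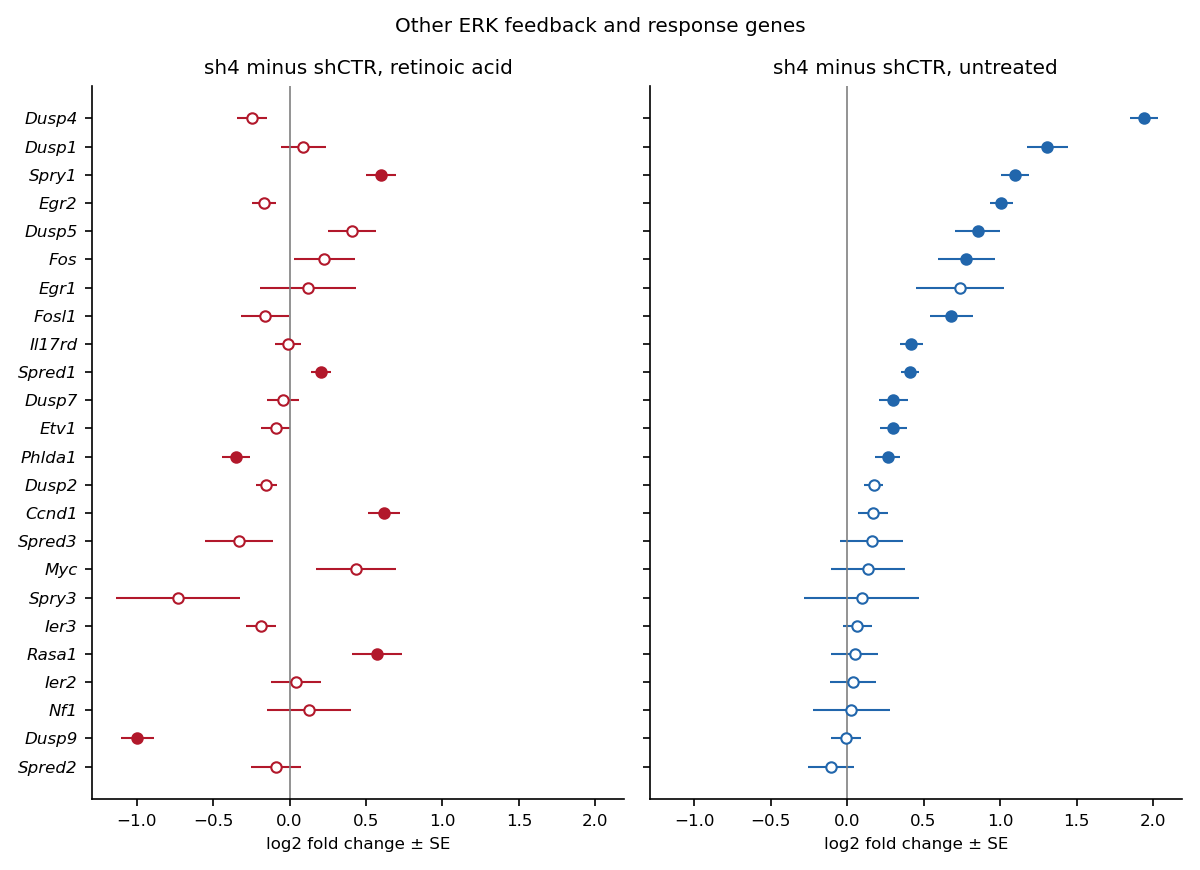
Log2 fold change ± SE of sh4 over shCTR for the 24 other ERK feedback and response genes, in retinoic acid (left) and untreated (right), ordered by the untreated value. Filled points passed an adjusted p of 0.05: 6 in retinoic acid, on both sides of 0, and 12 untreated, all above 0, with Dusp4 highest at 1.94.

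With retinoic acid this list split. In sh4 cells 6 rose and 12 fell, and in shCTR cells 10 rose and 9 fell. Phlda1 rose by 3.66 ± 0.09 (SE) and 4.27 ± 0.08 in sh4 and shCTR cells, whereas Etv1, an ETS factor of the same subfamily as Etv4 and Etv5, fell, at -3.97 ± 0.10 and -3.57 ± 0.09. Ccnd1, which encodes cyclin D1, fell as well, at -3.18 ± 0.11 and -3.63 ± 0.10. Spry3 was not well above background without treatment and was at least 4.75-fold higher in treated than untreated sh4 cells (adjusted p = 5.0e-06) and at least 7.87-fold higher in treated than untreated shCTR cells (adjusted p = 2.2e-07).

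Heparan sulfate chains hold FGFs at their receptors, and 20 of 22 genes for their synthesis and carriers were tested. In sh4 against shCTR cells 11 were higher and 2 lower in retinoic acid, against 10.8% and 10.3% of all genes. Untreated, 8 were higher and none lower, against 14.3% and 14.2% of all genes. The medians of the list were 0.29 in each, against 0.04 and 0.02 over all genes. Hs6st2, a sulfotransferase, was at 0.91 ± 0.07 (SE) treated and 2.97 ± 0.07 untreated, and the glypican Gpc4 at 1.08 ± 0.09 and 1.49 ± 0.08. Hs3st1 was lower in treated sh4 cells, at -1.61 ± 0.14. With retinoic acid 15 rose and 1 fell in sh4 cells, and 16 rose and 2 fell in shCTR cells. With slide as a block 11 were higher and 2 lower untreated, where that fit called 36% of all genes.

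The gene whose levels followed each member most closely was found by the root mean square difference of centred log2 levels over the 15 arrays. These distances mix treatment, hairpin and slide, which all arrays share, and they are given as descriptions. Etv4 was nearest to Gdf3 (0.17) and Nr5a2 (0.20), and Etv5 to Gdf3 (0.24) and Etv4 (0.29). Fgf4 was nearest to Esrrb (0.37) and Nr0b1 (0.39), and Fgf15 to Zfp42 (0.38) and Nr5a2 (0.39). Gdf3, Nr5a2, Esrrb, Nr0b1 and Zfp42 are genes well known from undifferentiated stem cells. Fgf17 was nearest to 1700019D03Rik (0.30) and LOC100303645 (0.33), Spry2 to C77370 (0.14) and Tmprss12 (0.17), and Spry4 to Olfr985 (0.95) and Foxd3 (1.04). The nearest genes were Cox15 and Ccdc57 for Fgf8 on its brightest probe, Pacs2 and Rb1 for Fgfr1, and Wdr86 and Jub for Dusp6.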

How the data were processed

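Total RNA of mouse embryonic stem cells was labelled with Cy3 and hybridised to 1-colour Agilent arrays, 15 in all, per the labels. The deposited scanner files hold a processed signal intensity per spot, from Feature Extraction 10.7.3.1 with probe positions on mm9, per the file headers. The deposited table of log2 values equals the scanner's mean spot signals, not the processed ones, after normexp background correction (offset 50) and quantile normalization. A comparison with the scanner files showed this (median absolute difference 3.4e-10), and the deposited values served as an alternative. Processed signals were put on the log2 scale after division by each array's 75th percentile. Of 39429 probes, 117 with no unmarked spot were dropped, and a probe was kept if any group had 3 or more arrays on which it stood well above background. The brightest kept probe stood for each gene name.

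limma 3.58.1 in R 4.3.3 fitted the 4 groups together, 2-sided, with Benjamini-Hochberg adjustment over 25090 genes and a threshold of 0.05; the fit was tested on simulated data. The members and gene lists were chosen with earlier results of these data known. The text names the 10 members, at most the 2 highest and 2 lowest called genes of each list in each comparison, and the 2 genes nearest each member. Slide was used as a block because arrays of 1 slide deviated together, though slide and replicate number largely coincide. Other backgrounds, scalings, filters, probes, blocks and left-out arrays were tried. Promoter windows came from RefSeq, GRCm38.p6.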

Additional observations from a re-analysis of the deposited data

Results flagged for a closer look

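Spry2 in untreated sh4 cells had a sample far from the others: replicate 1 was at -1.77 while the other 3 arrays lay between -1.60 and -1.58. It was the only such case among the 30 groups of 4 arrays examined, and chance flags about 1 in 20 groups. That array lay on slide 1, whose array was also the lowest for Spry2 in untreated shCTR cells (-2.14) and treated shCTR cells (-4.87). In treated sh4 cells it was not (-4.62 against -4.69 on slide 3). For 3 members the sh4 over shCTR difference itself differed between retinoic acid and no treatment: Fgf17 by -1.58, Etv5 by -1.53 and Dusp6 by -0.62 on the log2 scale, all lower in retinoic acid.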

How the results depend on the processing

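Of the 28 called values of the 10 members, 20 kept their direction and their call under all 29 settings in which they were computed. The members called for sh4 over shCTR in retinoic acid were 3 of 10, 5 with slide as a block, 1 with the second probe of Fgf8, Fgfr1 and Etv4 (chosen after seeing the data), and 3 to 5 over the left-out arrays. The other counts over the left-out arrays ran from 3 to 4 for the untreated hairpin comparison, 8 to 9 and 10 to 10 for retinoic acid in sh4 and shCTR, and 2 to 4 for the difference between hairpin effects. Among all genes, normexp background and median centring gave 3355 and 3295 calls for sh4 over shCTR in retinoic acid, against 5302, and 3011 and 2971 for the difference between hairpin effects, against 5110. Normexp gave 4622 untreated, against 7142. Median centring shifted the median of all genes with retinoic acid to -0.26 in sh4 and -0.33 in shCTR cells, against -0.12 in each, and in shCTR cells 35.4% of its calls were higher, against 46.3%. The causes were not tested. Signs that turned belonged to values that were not called in the fit as reported. With the second probe or the mean over probes, Fgf8 gave 0.52 or 0.14 untreated, -0.30 or -0.12 in retinoic acid (-0.0115 with slide as a block) and -0.81 or -0.25 for the difference between hairpin effects. Normexp or the deposited log2 values gave 0.0143 or 0.00018 for Fgf15 in that difference and 0.0623 or 0.0240 for Spry4 in retinoic acid. The deposited values gave 0.0303 for Dusp6 with retinoic acid in sh4 cells. Fgfr1 gave 0.0426, 0.0203, 0.0065 and 0.0090 for the difference between hairpin effects with median centring, the deposited values, the mean over probes and slide as a block. Over the left-out arrays, signs turned for Fgf8 (-0.0562 to 0.229) and Spry2 (-0.166 to 0.0157) in retinoic acid, Spry4 untreated (-0.0820 to 0.639) and Fgfr1 in the difference between hairpin effects (-0.0825 to 0.0254). Fgf8 with retinoic acid in sh4 cells lost its call without either of replicates 1 and 2 of untreated sh4 or replicates 1 and 4 of treated sh4 (adjusted p up to 0.19), and the Dusp6 difference between hairpin effects without any of 5 arrays (adjusted p up to 0.065). Arrays of the same replicate number did not all deviate together (correlations -0.533 to 0.578 over 21 pairs), and 10 of 15 arrays correlated best with an array of their own number, 13 with an array of their own slide. Most of these pairs also share a slide, so such counts hardly separate slide from replicate. With a replicate block the members called were 3 untreated, 4 in retinoic acid, where Fgf17 passed (-0.64, adjusted p = 0.0070), 10 and 9 for retinoic acid, and 4 for the difference between hairpin effects, where Etv4 passed (-0.65, adjusted p = 0.030). Leaving out the 3 arrays that the scanner software rated for evaluation removed the calls of Fgf8 with retinoic acid in sh4 cells (adjusted p = 0.068) and of the Dusp6 difference (0.11). With probes required on all arrays, Fgf15, Fgf17 and Spry4 had no value. Levels of Spry4 after retinoic acid, and of Fgf15 and Fgf17 in treated sh4 cells, are limited by background. Fgf15 and Fgf17 in treated shCTR cells were well above background but dim.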
